A study of Homo sapiens with 18 samples.

Results

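The BAG family comprises the genes BAG1 to BAG6, which encode cochaperones of the Hsp70 chaperones. Its 6 members were taken by gene symbol from the 26485 rows of the counts table, and all 6 passed the filter on low counts, which left 12832 genes to be tested. The proteins share the BAG domain, which binds the ATPase domain of Hsp70, although that of BAG6 is atypical and is not known to act in the same way. Hsp70 grips an unfolded protein while it holds ADP, and nucleotide exchange factors such as the canonical BAG proteins release the ADP so that the client is let go. Outside this domain the proteins connect to different machineries, namely the proteasome for BAG1, ubiquitin ligases for BAG2 and BAG5, small heat shock proteins and autophagy for BAG3, the type 1 TNF receptor for BAG4, and the capture of membrane proteins that have not been inserted for BAG6. BAG3 is known as a target of heat shock factor 1 (HSF1), the main transcription factor of the heat shock response.

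RNAseq had been performed on SW620, an established human colon cancer cell line, to ask how silencing of LONP1, the gene of a mitochondrial protease, changes the transcriptional response to heat shock. Cells received either a scramble siRNA or siRNA against Lonp1 (siLonp1). In both arms the Ctrl cells stayed at 37 °C, the HS cells spent 1 h at 42 °C, and the HS+REC cells had a further 1 h of recovery at 37 °C after the same heating. Each of the 6 groups had 3 libraries, which the methods describe as independent biological replicates. All groups came from 1 cell line without a genetic change, no untransfected cells were included, and the sources used here do not name which siRNA against Lonp1 was used for RNAseq.

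The libraries held between 30815860 and 47279297 counts, the shallowest being HS scramble replicate 3. LONP1 fell by 3.43, 4.19 and 3.01 on the log2 scale in Ctrl, HS and HS+REC siLonp1 cells against scramble cells. Of 8 markers of colon epithelium, 7 were detected and summed to between 8757.8 and 12132.4 counts scaled to library size (counts per 1e6, CPM), whereas CDX1 was at 0 in every library. Within this list CDX2, the gene of an intestinal transcription factor, had a mean of 29.5 CPM in Ctrl scramble and 15.8 in Ctrl siLonp1 cells, 26.1 and 10.0 in HS, and 25.0 and 11.9 in HS+REC, while CDH1, the gene of E-cadherin, had 102.7 and 158.3 CPM, 102.5 and 157.5, and 86.3 and 121.2. The 8 markers of other cell types, of which 2 passed the filter, had a summed level between 9.45 and 11.5 CPM in the Ctrl groups, between 15.5 and 21.4 in the HS groups and between 31.4 and 37.2 in the HS+REC groups. Most of that sum was COL1A1, a collagen gene, whose mean was 9.21 CPM in the Ctrl scramble group and 30.2 CPM in the HS+REC scramble group, while PTPRC, the pan-leukocyte gene, was at or near 0 in all groups. The part of these markers in the BAG results was not tested.

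In the hg38 build, GENCODE v44 places BAG3 on the forward strand of chromosome 10 from 119651380 to 119677819, with 4 exons. BAG1 is on the reverse strand of chromosome 9 from 33247820 to 33264720 with 7 exons, and BAG5 on the reverse strand of chromosome 14 from 103556545 to 103562657 with 2 exons. BAG2 and BAG6 are both on chromosome 6, BAG2 on the forward strand from 57172326 to 57189833 with 3 exons and BAG6 on the reverse strand from 31639028 to 31652705 with 26 exons. Of the exon bases of BAG2, 42.73% also lie in RAB23 on the opposite strand, whereas the overlap with genes of the opposite strand was at most 4.12% for BAG4, BAG5 and BAG6. The libraries were stranded but the strand setting of the counting is not given in the sources used here, so reads of BAG2 and RAB23 may not have been told apart.

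Since HSF1 binds heat shock elements, which are runs of the unit NGAAN in alternating orientation, the sequence before each RefSeq transcription start was searched for them in GRCh38. Windows from 250 bases before to 50 after the start were searched first and held no match for BAG1 or BAG3 and 1 pair for BAG2, where 13.5% of all such windows held a pair and 0.49% a run of 3 units. The search was then widened to 1000 bases before the start. The pair of units was written as GAANNTTC or TTCNNGAA, and the run of 3 units as GAANNTTC followed by NNGAA or TTCNNGAA followed by NNTTC. These letters cover both strands, and a run of 3 units contains 2 overlapping pairs. The stretches below hold every match before BAG1, BAG2 and BAG3, printed 5′ to 3′ on the strand of the gene, with the matched letters in capitals.
BAG3 run of 3 units: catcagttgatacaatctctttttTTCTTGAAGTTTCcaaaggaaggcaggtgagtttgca
BAG3 pair of units: gttgcccaatTTCTAGAAtcacaaataa
BAG1 pair of units: gggtttcgctTTCCCGAAgagtcggttc
BAG2 pair of units: cgaccgatagGAACCTTCgcgtgggggg

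The run of 3 units before BAG3 ended 494 bases upstream of the start, in the stretch chr10:119650850-119650910 on the forward strand, and the further pair ended 821 bases upstream, in chr10:119650542-119650569. GENCODE v44 annotates no gene over either stretch. The BAG1 pair ended 383 bases upstream of its start on the reverse strand, in chr9:33265081-33265108, which is coding sequence of CHMP5 on the opposite strand. The BAG2 pair ended 117 bases upstream on the forward strand, in chr6:57172192-57172219, within an exon of the non-coding RNA ZNF451-AS1. No form of the motif was found in the windows before BAG5 and BAG6, and BAG4 was not searched. Among 35116 windows of the same length, 1.57% held a run of 3 units and 40.3% held a pair, so that a pair alone is common. These matches are letters in a window, and binding was not measured.

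The BAG genes that passed the test for heat shock changed in different directions. BAG3 rose 41.5-fold in scramble cells and 53-fold in siLonp1 cells, BAG4 rose by 24.5% and 19.5%, BAG1 and BAG2 fell, and BAG5 and BAG6 did not pass the test. At an adjusted p of at most 0.05 in edgeR's quasi-likelihood test, 2 members rose and 2 fell in each arm, that is 4 of 6 in scramble cells, where 36% of all genes tested were called (18.6% raised and 17.3% lowered), and 4 of 6 in siLonp1 cells, where 42.2% were called (20.2% raised and 22.1% lowered). The count in scramble cells was 2 without HS scramble replicate 1 or 2. The libraries of HS and Ctrl did not overlap for 4 of 6 members in scramble cells and 4 of 6 in siLonp1 cells, against 50.2% and 54.2% of all genes. With a fold change above 2 as well, 1 of 6 was called in each arm, against 3.3% and 4.57% of all genes. The median log2 fold change over the 6 members was 0.03 and 0.01 in the 2 arms, next to -0.01 and 0 over all genes.

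**Figure D1:**
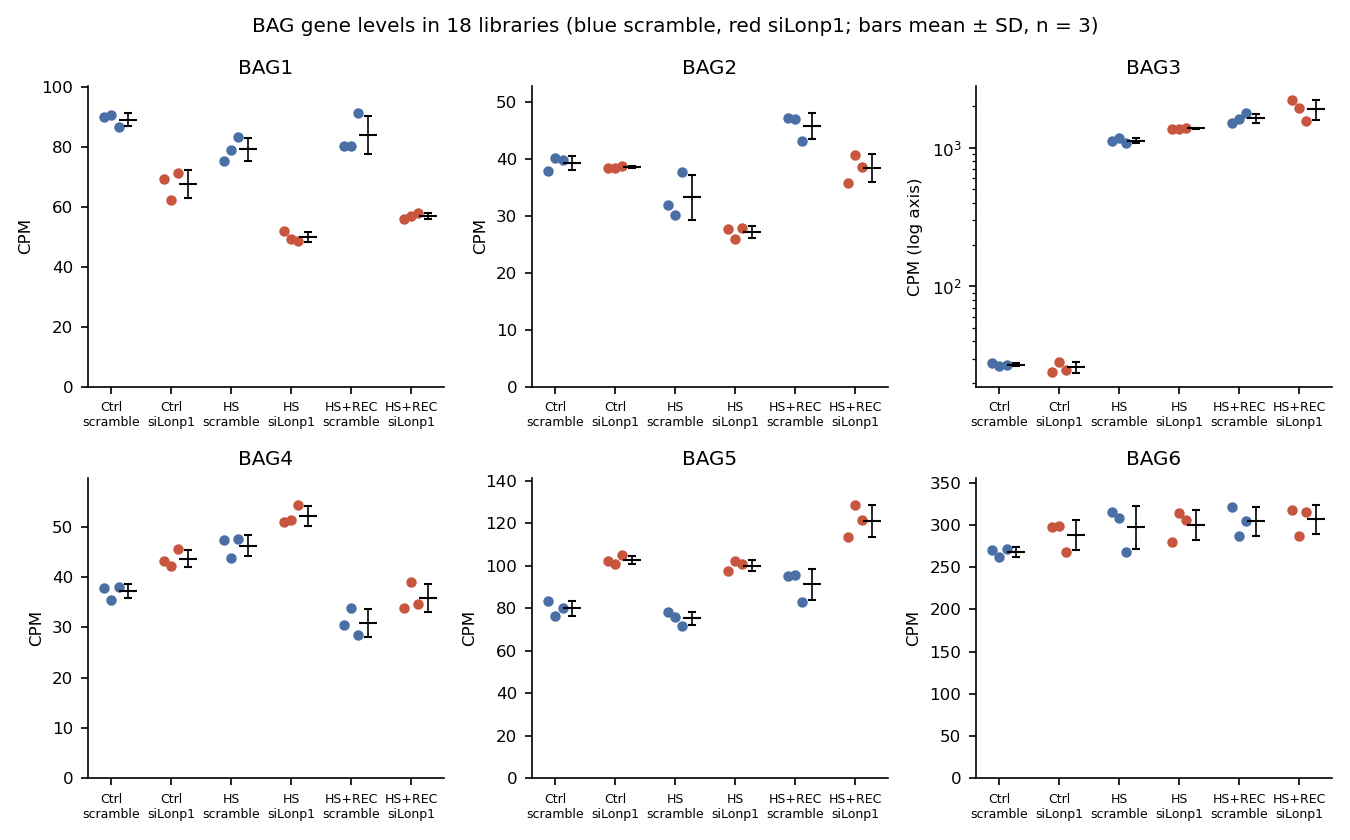
Level of each BAG gene in CPM (vertical axes, from 0 except for BAG3, which has a log axis) in the 3 libraries of each of the 6 groups, blue for scramble and red for siLonp1, with the mean ± SD beside them. BAG3 sits between 24.2 and 28.6 CPM in the 6 Ctrl libraries and between 1083.7 and 2196.9 CPM in the 12 heated libraries, whereas the heated and Ctrl libraries of each other member lie within the same order of magnitude, each panel having its own axis.

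BAG3, which couples Hsp70 to small heat shock proteins, read 27.9, 26.7 and 26.9 CPM in Ctrl scramble libraries and 24.2, 28.6 and 25.1 CPM in Ctrl siLonp1 libraries. After HS it read 1124.8, 1168.6 and 1083.7 CPM in scramble libraries and 1368.8, 1366.3 and 1390.8 CPM in siLonp1 libraries. Every HS library stood above every Ctrl library, and every HS siLonp1 library above every HS scramble library. The HS effect was 5.37 ± 0.1 (log2 fold change ± SE, adjusted p = 1.55e-21) in scramble cells and 5.73 ± 0.11 (adjusted p = 5.46e-22) in siLonp1 cells, which placed BAG3 16th and 14th from the top of the 12832 genes.

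BAG3 was higher still after recovery. The HS+REC libraries read 1508.3, 1610.5 and 1763.2 CPM in the scramble arm and 2196.9, 1935.2 and 1559.4 CPM in the siLonp1 arm. All 3 libraries of each arm lay above the HS libraries of that arm, but the 2 HS+REC groups overlapped each other. Against HS, BAG3 rose by a log2 fold change of 0.53 ± 0.09 (SE, adjusted p = 3.76e-05) in scramble cells and 0.46 ± 0.09 (adjusted p = 0.000141) in siLonp1 cells. Against Ctrl, HS+REC levels were 60-fold and 73.1-fold higher, which is the 19th place from the top in both arms.

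Silencing of Lonp1 had no detectable effect on BAG3 in unheated cells, at a log2 fold change of -0.06 with a 95% interval from -0.26 to 0.13 (adjusted p = 0.602). In HS, BAG3 was 1.22-fold higher in siLonp1 than in scramble cells, at 0.29 ± 0.08 (log2, SE, adjusted p = 0.00629), and it passed without each of the 6 libraries in turn. In HS+REC the difference was 0.22 ± 0.08 (log2, SE, adjusted p = 0.0315). That last call was lost without HS+REC siLonp1 replicate 1 (0.10, adjusted p = 0.335) or replicate 2 (0.21, 0.077) and without HS+REC scramble replicate 1 (0.17, 0.136) or replicate 2 (0.21, 0.0739), and when only the groups compared were fitted (0.22, 0.115). With library sizes only, the difference was 0.19 in HS (adjusted p = 0.0504) and 0.15 in HS+REC (adjusted p = 0.129).

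BAG1, which brings Hsp70 to the proteasome through a ubiquitin-like domain, was the member that differed most between the arms. It read 90.0, 90.8 and 86.8 CPM in Ctrl scramble, 75.4, 79.2 and 83.3 in HS scramble and 80.3, 80.3 and 91.3 in HS+REC scramble. In siLonp1 cells it read 69.4, 62.4 and 71.5 CPM in Ctrl, 52.0, 49.5 and 48.7 in HS and 56.2, 56.9 and 58.2 in HS+REC. In each condition the 3 siLonp1 libraries lay below the 3 scramble libraries. Without heat the siLonp1 effect on BAG1 was -0.40 ± 0.06 (log2, SE, adjusted p = 1.98e-05), against -0.66 ± 0.06 (1.6e-08) in HS and -0.56 ± 0.06 (1.58e-07) in HS+REC, and it passed without any single library.

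In siLonp1 cells the HS effect on BAG1 was -0.44 ± 0.06 (log2, SE, adjusted p = 6.22e-06), a fall by 26.1%, and the HS+REC effect was -0.25 ± 0.06 (adjusted p = 0.0024). In scramble cells the HS effect was -0.17 ± 0.06 (adjusted p = 0.0376) and the HS+REC effect was -0.09 (adjusted p = 0.289), or -0.17 (0.03) with library sizes only. The difference between the arms did not pass, at -0.27 for HS (adjusted p = 0.138) and -0.16 for HS+REC (0.456). The HS call in scramble cells was lost without any of the 3 Ctrl scramble libraries (-0.16, -0.16 and -0.19, adjusted p between 0.0504 and 0.112) and without HS scramble replicate 1 (-0.14, 0.167) or replicate 2 (-0.17, 0.0865), as well as with no filter on low counts (-0.16, 0.081) and with a filter of CPM above 1 in all 18 libraries (-0.15, 0.0738). The partial return of BAG1 in siLonp1 cells between HS and HS+REC, at 0.19 ± 0.06 (log2, SE, adjusted p = 0.0267), was likewise lost without HS siLonp1 replicate 2 (0.0785) or 3 (0.102) and without HS+REC siLonp1 replicate 1 (0.0532) or 3 (0.0773), with library sizes only (0.063) and with no filter (0.0915).

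BAG2, an inhibitor of the ubiquitin ligase CHIP, was lower in HS and back at or above the Ctrl level after recovery. It read 37.8, 40.2 and 39.7 CPM in Ctrl scramble, 31.9, 30.1 and 37.6 in HS scramble and 47.1, 46.9 and 43.1 in HS+REC scramble. The siLonp1 libraries read 38.4, 38.4 and 38.7 CPM in Ctrl, 27.7, 26.0 and 27.8 in HS and 35.7, 40.6 and 38.6 in HS+REC. HS scramble replicate 3, the shallowest library, stood near the Ctrl level and the other 2 below it.

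The HS effect on BAG2 was -0.24 ± 0.07 (log2, SE, adjusted p = 0.0103) in scramble cells and -0.50 ± 0.07 (adjusted p = 5.49e-06) in siLonp1 cells. In scramble cells it was lost without HS scramble replicate 1 (-0.22, adjusted p = 0.0528) or replicate 2 (-0.18, 0.0884). From HS to HS+REC, BAG2 rose by 0.46 ± 0.07 (log2, SE, adjusted p = 2.57e-05) and 0.49 ± 0.07 (1.04e-05) in the 2 arms. Against Ctrl, HS+REC scramble cells were 0.22 ± 0.07 higher (log2, SE, adjusted p = 0.0156), a call lost without Ctrl scramble replicate 1 (0.0687) and without HS+REC scramble replicate 1 (0.0562) or 2 (0.051) and with library sizes only (0.14, 0.124), and siLonp1 cells were at -0.01 (adjusted p = 0.946). The siLonp1 effect on BAG2 was -0.03 in Ctrl (adjusted p = 0.784), -0.28 ± 0.07 in HS (adjusted p = 0.00235) and -0.25 ± 0.07 in HS+REC (adjusted p = 0.00472).

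RAB23, the gene on the other strand of BAG2, was between 11.9 and 16.2 CPM in the group means. Its HS effect was 0.27 ± 0.09 (log2, SE, adjusted p = 0.0241) in scramble cells, opposite to that of BAG2, and 0.01 in siLonp1 cells (adjusted p = 0.913). The HS+REC effect on RAB23 was 0.21 ± 0.09 (adjusted p = 0.0708) in scramble cells, of the same size as that of BAG2, and -0.16 ± 0.09 (0.138) in siLonp1 cells. The part of shared reads in the BAG2 values was not tested.

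BAG4, also named silencer of death domains for its binding to the type 1 TNF receptor, rose in HS and was below the Ctrl level 1 h later. GENCODE v44 places it in hg38 on the forward strand of chromosome 8 from 38176533 to 38213301, with 5 exons. In scramble cells it read 37.8, 35.5 and 38.0 CPM in Ctrl, 47.3, 43.8 and 47.5 in HS and 30.5, 33.9 and 28.4 in HS+REC. In siLonp1 cells it read 43.2, 42.1 and 45.5 CPM in Ctrl, 50.8, 51.2 and 54.3 in HS and 33.8, 38.9 and 34.7 in HS+REC. Within each arm the 3 conditions did not overlap.

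The HS effect on BAG4 was 0.32 ± 0.07 (log2, SE, adjusted p = 0.000941) in scramble cells and 0.26 ± 0.07 (0.00403) in siLonp1 cells, a rise of 24.5% and 19.5%. From HS to HS+REC it fell by 33.1% and 31.3%, at -0.58 ± 0.07 (log2, SE, adjusted p = 9.22e-07) and -0.54 ± 0.07 (1.5e-06). Only 427 and 546 of the 12832 genes stood at or below BAG4 in the order of that comparison. The HS+REC effect against Ctrl was -0.26 ± 0.07 (adjusted p = 0.00401) and -0.28 ± 0.07 (0.00154). All of these calls held without each library in turn.

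The siLonp1 effect on BAG4 was positive and small in the 3 conditions, at 0.23 ± 0.07 in Ctrl (log2, SE, adjusted p = 0.0081), 0.17 ± 0.07 in HS (0.0371) and 0.21 ± 0.07 in HS+REC (0.0149). In HS the call was lost without HS scramble replicate 1 (0.0526) or 2 (0.154) and without HS siLonp1 replicate 2 (0.0536) or 3 (0.137). In HS+REC it was lost without HS+REC scramble replicate 3 (0.09) or HS+REC siLonp1 replicate 2 (0.0964) and when only the groups compared were fitted (0.0703). With library sizes only, no siLonp1 effect on BAG4 passed (adjusted p of 0.0666, 0.357 and 0.101).

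BAG5, which is built of several BAG domains, was higher in siLonp1 cells in every condition. It read 83.6, 76.4 and 80.2 CPM in Ctrl scramble, 78.2, 75.9 and 71.9 in HS scramble and 95.2, 95.7 and 83.0 in HS+REC scramble. The siLonp1 libraries read 102.3, 101.1 and 105.1 CPM in Ctrl, 97.4, 102.3 and 100.8 in HS and 113.4, 128.5 and 121.7 in HS+REC. No siLonp1 library overlapped the scramble libraries of its condition. Unheated, the siLonp1 effect on BAG5 was 0.36 ± 0.06 (log2, SE, adjusted p = 5.48e-05), next to 0.41 ± 0.06 (1.01e-05) in HS and 0.41 ± 0.06 (9.13e-06) in HS+REC, between 28.5% and 32.9% higher, and it passed without each library in turn.

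Heat itself left BAG5 within the error, at -0.09 with a 95% interval from -0.22 to 0.04 (log2, adjusted p = 0.307) in scramble cells and -0.04 from -0.17 to 0.09 (adjusted p = 0.664) in siLonp1 cells. From HS to HS+REC it rose by 0.28 ± 0.06 in both arms (log2, SE, adjusted p = 0.00173 and 0.00133). The HS+REC effect against Ctrl was 0.24 ± 0.06 (adjusted p = 0.0028) in siLonp1 cells and 0.19 ± 0.06 (adjusted p = 0.0179) in scramble cells. In scramble cells that call was lost without Ctrl scramble replicate 2 (0.093) and without HS+REC scramble replicate 1 (0.0799) or 2 (0.0811), and with library sizes only (0.11, 0.188).

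BAG6, the scaffold of a complex that captures membrane proteins before they aggregate, was the most abundant member of unheated cells per length, and 1 of its 9 comparisons between 2 groups passed. Its libraries ranged from 261.3 to 271.6 CPM in Ctrl scramble and from 267.6 to 321 CPM over the other 15 libraries. The HS effect was 0.15 ± 0.07 (log2, SE, adjusted p = 0.0916) in scramble cells and 0.06 ± 0.07 (0.52) in siLonp1 cells. HS scramble replicate 3, at 267.6 CPM, stood apart from the other 2 at 314.7 and 308.3 CPM, and without it the HS effect on BAG6 in scramble cells was 0.24 (adjusted p = 0.0084). When only the groups compared were fitted it was 0.16 (adjusted p = 0.0464). The siLonp1 effect did not pass in any condition, at 0.10 with a 95% interval from -0.04 to 0.25 in Ctrl, 0.01 from -0.13 to 0.15 in HS and 0.01 from -0.13 to 0.15 in HS+REC.

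The 1 BAG6 comparison that passed was HS+REC against Ctrl in scramble cells, at 0.18 ± 0.07 (log2, SE, adjusted p = 0.0333). It was lost without any of the 3 Ctrl scramble libraries (0.064, 0.107 and 0.0601) and without HS+REC scramble replicate 1 (0.14) or 3 (0.0587), where the values in brackets are adjusted p. With library sizes only it was 0.10 (adjusted p = 0.244). In siLonp1 cells the same comparison was 0.09 ± 0.07 (adjusted p = 0.291).

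**Figure D2:**
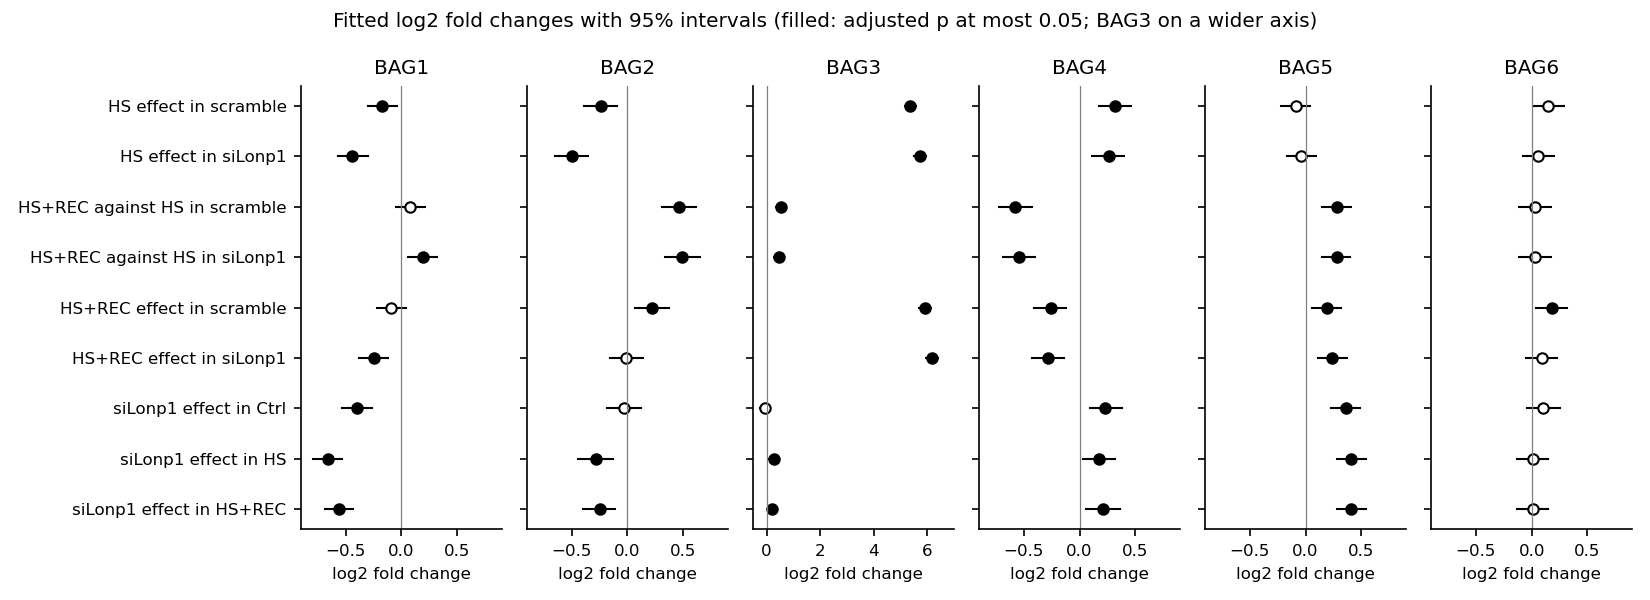
Fitted log2 fold change (horizontal axes) of each BAG gene in 9 comparisons (rows), with 95% intervals, filled where the adjusted p was at most 0.05. BAG3 has a wider axis than the other members, and BAG1 (-0.40 to -0.66) and BAG5 (0.36 to 0.41) lie on opposite sides of 0 in the siLonp1 rows.

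Counted over the family, 5 of 6 members passed for HS+REC against Ctrl in scramble cells, where 42.3% of all genes were called, and 4 of 6 in siLonp1 cells, where 51.2% were. The count of 5 in scramble cells was 2 without HS+REC scramble replicate 1 and 3 without HS+REC scramble replicate 2 or Ctrl scramble replicate 1 or 2. For HS+REC against HS the counts were 4 of 6 (26.8% of all genes) in scramble and 5 of 6 (31.9%) in siLonp1 cells. The siLonp1 effect passed for 3 of 6 in Ctrl (49.2% of all genes), 5 of 6 in HS (54.8%) and 5 of 6 in HS+REC (54.1%), and none of these exceeded 2-fold, against 4.17%, 4.17% and 4.18% of all genes. The count in HS+REC was 3 without HS+REC siLonp1 replicate 2. In Ctrl the share of members called is thus near that of all genes. In HS+REC against HS no member exceeded 2-fold either (1.9% and 2.57% of all genes), and in HS+REC against Ctrl 1 did in each arm, BAG3 (4.46% and 5.71%). Libraries of the groups compared did not overlap for 4 of 6 members in HS+REC against Ctrl in either arm (51.7% and 55.4% of all genes), for 4 and 5 in HS+REC against HS in scramble and siLonp1 cells (34.7% and 40.2%), and for 3, 5 and 3 in the siLonp1 effect in Ctrl, HS and HS+REC (63%, 60.7% and 52%). Comparisons that use the same group share its libraries, so the counts are not independent of each other.

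Whether the arms answered heat differently was tested by the interaction of siLonp1 with each heat comparison. In edgeR's quasi-likelihood test 0 of 6 members passed for HS, HS+REC or HS+REC against HS, where 1.87%, 1.58% and 1.38% of all genes were called. DESeq2 and edgeR's likelihood ratio test, run on the same libraries, also gave 0 members after adjustment. In absolute size the largest interactions with HS were BAG3 at 0.35 ± 0.13 (log2, SE, adjusted p = 0.169), BAG1 at -0.27 ± 0.09 (0.138) and BAG2 at -0.26 ± 0.1 (0.223). Those with HS+REC were BAG3 at 0.29 ± 0.13 (log2, SE, adjusted p = 0.316) and BAG2 at -0.23 ± 0.1 (0.32). When only the 4 groups of the HS interaction were fitted, BAG3 (0.34, adjusted p = 0.0167) and BAG1 (-0.28, adjusted p = 0.0498) passed, with no filter on low counts BAG3 passed (adjusted p = 0.0325), and without HS+REC siLonp1 replicate 3 BAG3 passed for HS+REC (0.41, adjusted p = 0.0347). When each of the other 11 libraries was left out in turn it did not pass for HS+REC, with a lowest value of 0.16 (adjusted p = 0.584) without HS+REC siLonp1 replicate 1. The 95% interval of the BAG3 interaction with HS ran from 0.09 to 0.62, and those of BAG4, BAG5 and BAG6 ran from -0.26 to 0.14, from -0.14 to 0.23 and from -0.29 to 0.11.

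Levels were compared between members as CPM per kilobase of the canonical GENCODE transcript (CPM per kb), since longer transcripts yield more reads. In Ctrl scramble cells BAG6 led at 69.7 ± 1.48 CPM per kb (SD, n = 3), followed by BAG1 at 23.3 ± 0.558, BAG5 at 17.1 ± 0.772, BAG3 at 10.6 ± 0.257, BAG4 at 8.84 ± 0.335 and BAG2 at 5.9 ± 0.189. No neighbours in that order overlapped. In Ctrl siLonp1 cells BAG5 at 22 ± 0.437 CPM per kb stood above BAG1 at 17.7 ± 1.25, and BAG4 and BAG3 overlapped. In HS and HS+REC cells of both arms BAG3 led and BAG6 came second. The order of BAG1 and BAG5 depends on the length used, since with the length of all exons BAG5 stood above BAG1 in all 6 groups.

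The family sum in Ctrl scramble cells was 135.5 ± 2.26 CPM per kb (SD, n = 3), of which BAG6 held 51.4% and BAG3 7.82%. After HS the sum was 569.7 ± 21 CPM per kb in scramble and 666.1 ± 8.07 in siLonp1 cells, with BAG3 at 77.2% and 80.6%, and after HS+REC it was 770.2 ± 48 and 875.6 ± 123.7 CPM per kb, with BAG3 at 82.4% and 84.4%. Without BAG3 the group means of the sum lay between 124.9 and 134.8 CPM per kb. BAG3 itself went from a mean of 10.6 CPM per kb in Ctrl scramble to means between 439.6 and 740.8 in the heated groups. Without division by length the BAG3 share was 5.02% in Ctrl scramble and 68% in HS scramble cells.

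**Figure D3:**
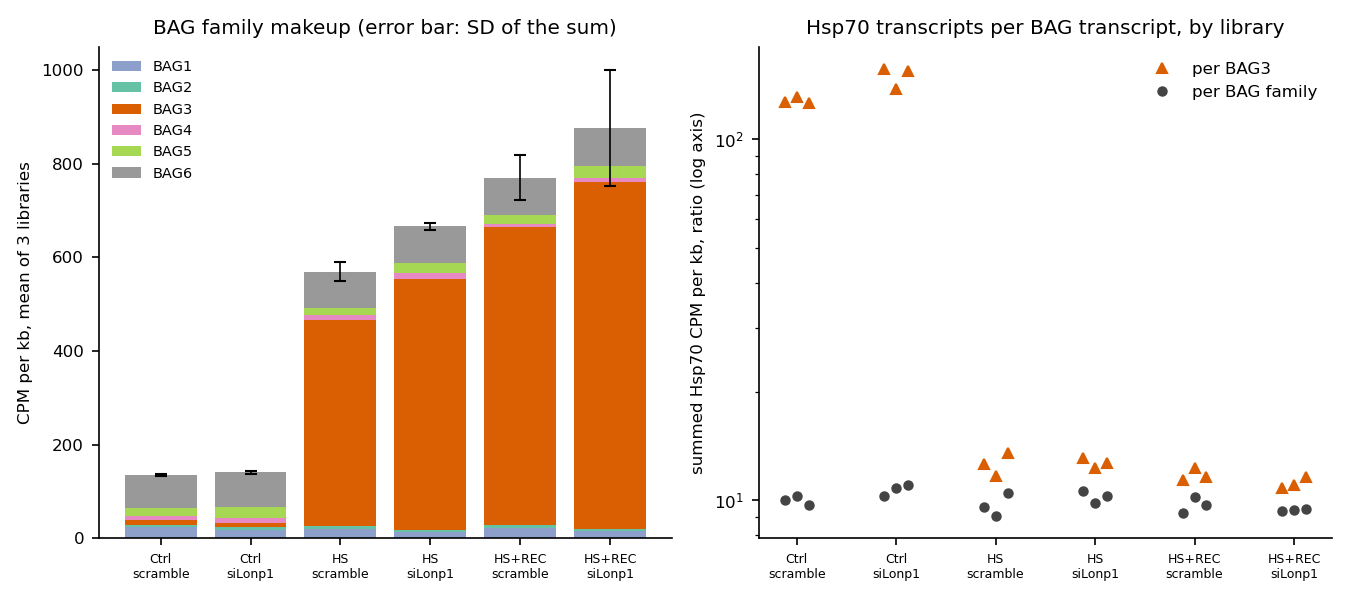
Left, mean CPM per kb of the 6 BAG genes stacked by group, with the SD of their sum over 3 libraries. Right, on a log axis, summed CPM per kb of 6 Hsp70 genes divided by that of the BAG family (circles) or of BAG3 (triangles) in each library, where the ratio to BAG3 drops from 127.8 to 12.6 between Ctrl and HS scramble and the ratio to the family stays between 9.05 and 11.

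The level of the chaperone was taken as the sum over the Hsp70 genes HSPA1A, HSPA1B, HSPA1L, HSPA2, HSPA6 and HSPA8. The summed Hsp70 level was 1353.9 ± 32.1 CPM per kb (SD, n = 3) in Ctrl scramble, 5523.4 ± 203.2 in HS scramble and 7462.9 ± 669.8 in HS+REC scramble cells. Divided by the BAG sum, this gave 10.0 ± 0.284, 9.71 ± 0.72 and 9.68 ± 0.476 in the scramble arm and 10.7 ± 0.329, 10.3 ± 0.4 and 9.4 ± 0.0785 in the siLonp1 arm. The ratio to BAG3 alone fell from 127.8 ± 2.82 to 12.6 ± 0.938 and 11.7 ± 0.472 in scramble cells. By library the ratio to the family, which includes BAG6 with its atypical BAG domain, ranged from 9.05 to 11. It depends on the length used: with the length of all exons it was 6.81 in Ctrl scramble and 7.89 in HS scramble cells, and without division by length 5.68 and 7.83. HSPA1A and HSPA1B are nearly identical in sequence and the handling of reads that align to both is not given, so their single values are uncertain.

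Of the 6 Hsp70 genes, whose products bind the canonical BAG domain, 6 rose in HS scramble cells (18.6% of all genes raised), 5 of them over 2-fold, and in siLonp1 cells 5 rose (20.2% of all genes) and HSPA2 did not pass (0.07 ± 0.08, adjusted p = 0.479). The median log2 fold change of the list was 5.64 and 6.26, next to -0.01 and 0 over all genes. HSPA1L stayed under the minimum of 1 CPM in every Ctrl library (0.687 to 0.913), so only heated libraries brought it past the filter. Its rise was therefore fixed in advance. Its part in these counts and in the median is not evidence about the list. HSPA6, the strictly inducible Hsp70, rose by 9.12 ± 0.27 (log2, SE) and HSPA1A by 7.11 ± 0.11 in scramble cells, whereas HSPA8, the constitutive Hsp70, rose by 1.16 ± 0.07. From HS to HS+REC, HSPA6 fell by 1.26 on the log2 scale in scramble cells while BAG3 and HSPA1A (0.79 ± 0.09) rose.

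Of the 8 other nucleotide exchange factors of Hsp70 chaperones, 4 rose, 3 fell and 1 did not pass in HS scramble cells, where 18.6% of all genes were raised and 17.3% lowered. Those that rose were HSPH1 at 2.76 ± 0.08 (log2, SE), HSPA4L at 1.18 ± 0.09, HSPA4 at 0.78 ± 0.06 and the mitochondrial GRPEL2 at 0.67 ± 0.08. The 3 that fell, GRPEL1 of mitochondria (-0.19 ± 0.05) and SIL1 (-0.18 ± 0.07) and HYOU1 (-0.16 ± 0.06) of the endoplasmic reticulum, changed little. All 8 stayed below the 5.37 of BAG3. The interaction of siLonp1 with HS passed for 3 of these 8, where 1.87% of all genes were called. They were HSPH1 (0.75 ± 0.11, adjusted p = 0.000585), HSPA4L (0.65 ± 0.13, 0.00953) and HSPA4 (0.31 ± 0.08, 0.0494). It passed for 1 of the 6 Hsp70 genes. In the lists described below it passed for 0 of 7 BAG3 partners, 0 of 7 genes of the BAG6 complex and GET pathway, and 0 of 3 partners of BAG1, BAG4 and BAG5.

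Of 10 partners of BAG3, 7 were tested, and 5 rose and none fell in HS in both arms. Of all genes 18.6% were raised and 17.3% lowered in scramble cells, and 20.2% and 22.1% in siLonp1 cells. The small heat shock protein HSPB1 rose by 2.48 ± 0.13 (log2, SE) in scramble and 2.49 ± 0.13 in siLonp1 cells. HSPB8, the small heat shock protein that joins BAG3 in selective autophagy, was at 0.0151 CPM in Ctrl scramble, 0.987 CPM in HS scramble and 1.62 CPM in HS+REC scramble cells, and CRYAB was at 0.014, 4 and 7.94 CPM. Both passed the filter on low counts only through heated libraries, so their rise was fixed in advance. Since both are among the 5 that rose, that count is not evidence about the list. AMOTL2 (0.59 ± 0.07) and the 14-3-3 gene YWHAG (0.57 ± 0.06) rose by less. The autophagy receptor gene SQSTM1 (-0.04 ± 0.06, adjusted p = 0.647) and STUB1, the gene of CHIP (-0.06 ± 0.08, adjusted p = 0.602), did not pass in HS scramble cells. SYNPO2, HSPB6 and AMOTL1 did not pass the filter on low counts.

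The 7 genes described here of the BAG6 complex and of the GET pathway, which inserts tail-anchored proteins, held no gene that rose in HS scramble cells. There 2 fell, namely UBL4A (-0.56 ± 0.08, log2, SE), a subunit of the BAG6 complex, and SGTA (-0.33 ± 0.07), which hands clients to that complex, and the list median was -0.15, while 17.3% of all genes were lowered and their median was -0.01. UBL4A stayed lower after recovery (-0.58 ± 0.08), whereas SGTA was at 0.04 (adjusted p = 0.718). GET4, the other subunit bound to BAG6, did not pass in HS in either arm (0.07 and -0.03). In siLonp1 cells 4 of 7 fell and 1 rose in HS, where 22.1% of all genes were lowered and 20.2% raised.

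The 3 partners of BAG1, BAG4 and BAG5 that are described here were all tested, and in HS 1 fell and none rose in each arm, where 36% of all genes were called in scramble and 42.2% in siLonp1 cells. TNFRSF1A, the gene of the type 1 TNF receptor that BAG4 binds, fell in HS by 0.35 on the log2 scale in scramble cells (adjusted p = 0.00224) and by 0.77 in siLonp1 cells (1.18e-07), where BAG4 rose. PINK1, the gene of a kinase that marks damaged mitochondria, was higher in siLonp1 cells in each condition, by 0.43 ± 0.07 (log2, SE) in both Ctrl and HS+REC and by 0.48 ± 0.07 in HS, the direction also seen for BAG5. The siLonp1 effect was called for 49.2%, 54.8% and 54.1% of all genes in Ctrl, HS and HS+REC. Of the 3 partners, siLonp1 raised 1 in each condition and lowered 1 in HS. BCL2, the gene of an inhibitor of apoptosis that BAG1 binds, did not pass for HS in either arm (0.14 ± 0.19 and -0.26 ± 0.2, adjusted p = 0.593 and 0.315).

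The siLonp1 effect on the same lists was within 1 on the log2 scale for every gene that passed in Ctrl or HS. Of the 6 Hsp70 genes 1 was raised by siLonp1 in Ctrl, HSPA1A (0.36 ± 0.1, log2, SE, adjusted p = 0.00537), and 2 in HS, HSPA1L (0.88 ± 0.1, 1.17e-07) and HSPA8 (0.42 ± 0.07, 4.2e-05). Among all genes 49.2% were called for siLonp1 in Ctrl and 54.8% in HS. Of the 8 other nucleotide exchange factors 1 was raised and 1 lowered in Ctrl (49.2% of all genes called), and 5 were raised and 1 lowered in HS (54.8% called), with HSPH1 at 0.63 ± 0.08 and HYOU1, the exchange factor of the endoplasmic reticulum, at 0.40 ± 0.06. Of the 7 BAG3 partners tested, siLonp1 raised 2 and lowered none in Ctrl (49.2% of all genes called), and raised 2 and lowered 1 in HS (54.8% called). Those raised were AMOTL2 (0.66 ± 0.07 in Ctrl and 0.57 ± 0.07 in HS) and YWHAG (0.28 ± 0.06 and 0.22 ± 0.06), and STUB1 was lowered in HS (-0.22 ± 0.08). In the list of the BAG6 complex and the GET pathway, siLonp1 raised 1 of 7 and lowered 1 in Ctrl, and raised 2 and lowered 2 in HS, next to the same 49.2% and 54.8% of all genes called. It raised SGTA (0.55 ± 0.07 in Ctrl and 0.50 ± 0.07 in HS) and lowered ASNA1, the gene of the ATPase that carries tail-anchored proteins (-0.38 ± 0.08 and -0.36 ± 0.08). In HS it also raised CAMLG (0.27 ± 0.07) and lowered GET4 (-0.17 ± 0.07), while BAG6 itself did not pass.

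**Figure D4:**
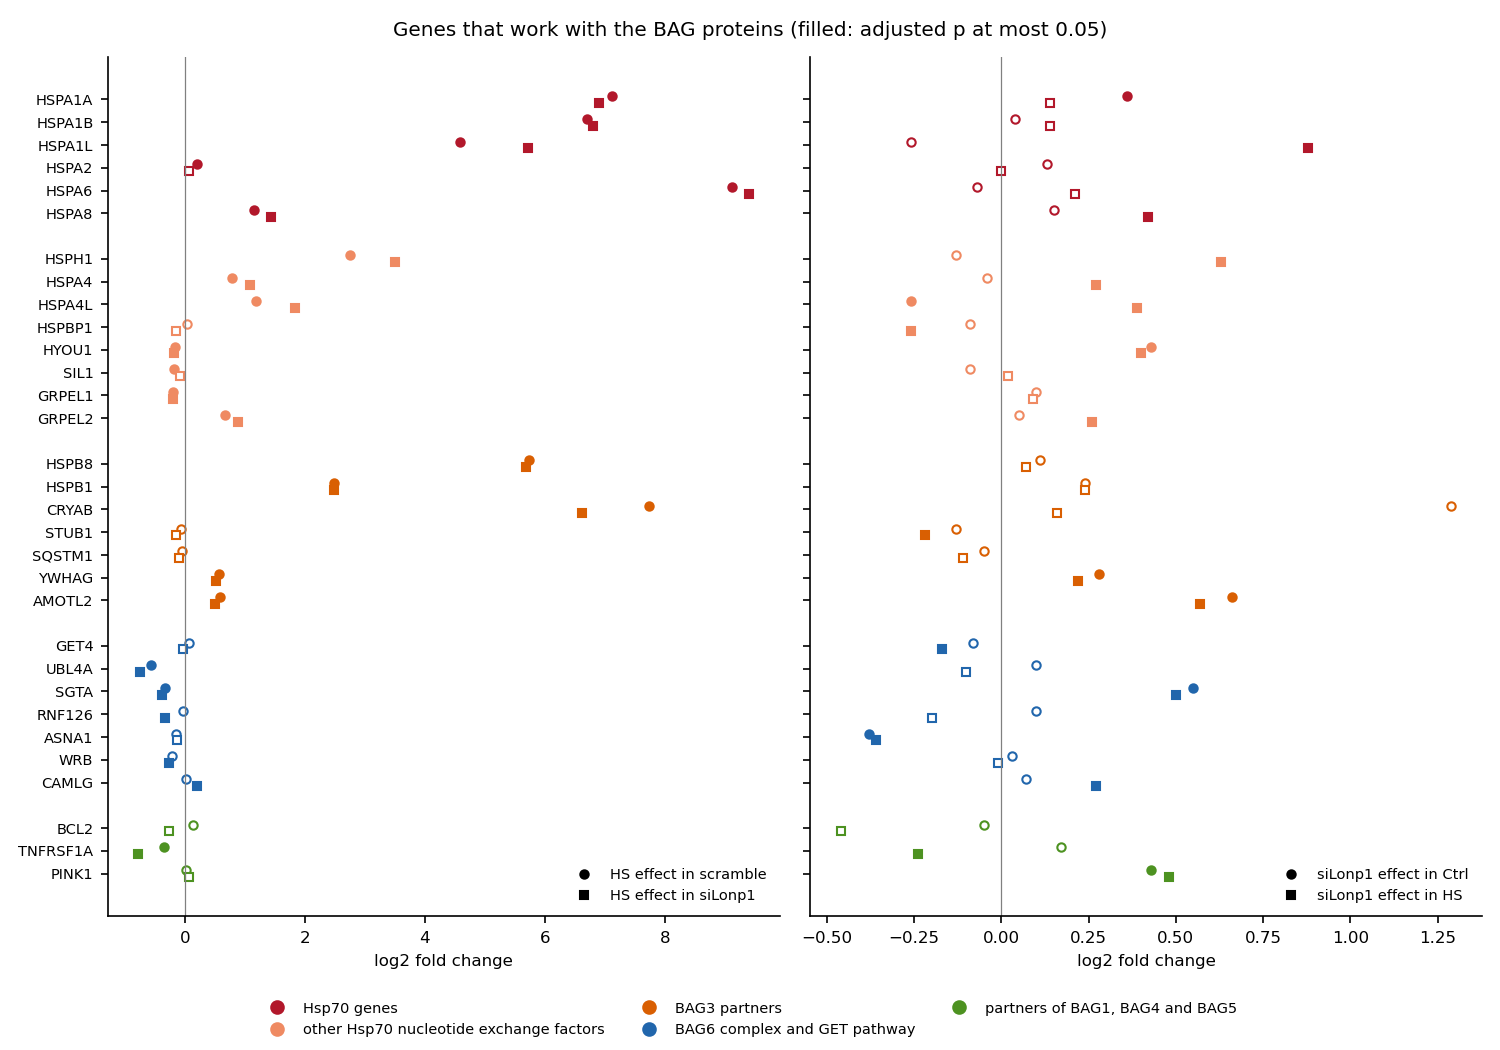
Log2 fold change (horizontal axes) of the genes whose proteins work with BAG proteins, by list (colours), for the HS effect in each arm (left) and the siLonp1 effect in Ctrl and HS (right), filled where the adjusted p was at most 0.05. Hsp70 genes reach 9.12 and 9.4 on the left, while the genes of the BAG6 complex and the GET pathway stay between -0.75 and 0.21.

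As a description, the genes whose log2 CPM followed each member most closely over the 18 libraries were ranked by Pearson's r, with the libraries sharing conditions and arms. BAG3 was followed by HSPA1A (r = 0.999), DNAJA4 (0.998) and HSPA1B (0.998). BAG1 was followed by HOXA10-AS (0.97), MCAT (0.969) and HOXA10 (0.969), BAG2 by RARS (0.947), DNAJC2 (0.93) and CENPQ (0.925), and BAG4 by ZNF140 (0.967), KBTBD2 (0.962) and ZNF440 (0.952). BAG5 was followed by SEC24A (0.98), HNRNPA3 (0.976) and RNF145 (0.974), and BAG6 by FBRS at 0.89, GYS1 at 0.865 and EWSR1 at 0.849. No gene was listed for more than 1 member.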

How the data were processed

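RNAseq counts were taken from 18 libraries, and only the BAG genes and the genes that bear on them are described. Paired-end reads of stranded mRNA libraries had been aligned to hg38 with STAR 2.7.3a by the authors, who deposited raw counts of UCSC annotated genes, made with featureCounts in R 3.6.3. The strand setting, the handling of shared reads and any removal of duplicates are not given in the sources used here. Column names gave each library its group and replicate number.

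A minimum CPM of 1, exceeded in 3 or more libraries, selected the genes, which were fitted with edgeR 4.0.16 in R 4.3.3 (TMM factors, quasi-likelihood test, 1 model of 6 group means, Benjamini-Hochberg over all 12832 genes). A gene passed at an adjusted p of at most 0.05. The common biological coefficient of variation was 0.0658. Standard errors are the log2 fold change divided by the square root of F. CPM used TMM-scaled library sizes, with a prior count of 2 for correlations. The fit was tested on simulated counts. Within groups, pairs of replicates had a chi-square of at least 5.45 per degree of freedom, so none was treated as a duplicate.

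Lengths and overlaps came from GENCODE v44, and transcription starts from RefSeq. Older symbols stood for GET1 and GET3. Of the partner lists, 3 genes are not reported here. The members and the partner lists were chosen with earlier results of these data known, and the 1000-base windows and the length of all exons were chosen after seeing the data. BAG1 to BAG6 were chosen to be named in each comparison, and LONP1 is given for the siLonp1 effect only. Of the lists, the genes with the 2 highest and 2 lowest changes past the test in HS scramble were named first, and for each member the 3 genes of highest r. RAB23 and COL1A1 were named after their values were seen. The alternatives were RLE factors, library size only, other filters, DESeq2 1.42.0, the likelihood ratio test, fits of only the groups compared, a replicate block, FDR 0.01 and each library left out.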

Additional observations from a re-analysis of the deposited data

How the results depend on the processing

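BAG3 exceeded 2-fold for HS and HS+REC in both arms under every alternative, and no other member exceeded 2-fold in any comparison. RLE factors, DESeq2, the likelihood ratio test, the stricter filter and the replicate block left all 12 counts of BAG genes within 1.5 times, although the call of BAG1 for HS in scramble cells was lost with the stricter filter (adjusted p = 0.0738). At FDR 0.01 the counts were 2 for the HS effect and 2 for the HS+REC effect in scramble cells and 3 for the siLonp1 effect in HS+REC. With library size only they were 3 for the HS+REC effect in scramble cells, 3 for the siLonp1 effect in HS and 3 in HS+REC, with the median of all genes shifted by up to -0.1. Fitting only the groups compared gave 3 for the siLonp1 effect in HS+REC and 2 for the interaction with HS, and no filter gave 1 for that interaction. Leaving out a library gave 2 to 5 members for the HS effect and 2 to 4 for the HS+REC effect in scramble cells, 3 to 5 for the siLonp1 effect in HS+REC and 0 to 1 for the interaction with HS+REC.

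Direction changed only for values near 0. BAG2 for HS+REC in siLonp1 cells was 0.01 with the stricter filter and 0.02 with only the groups compared. With library size only BAG6 was -0.02 and 0 for HS+REC against HS in the 2 arms, -0.08 for siLonp1 in HS and -0.06 in HS+REC. For the interaction with HS+REC against HS, BAG5 and BAG6 were 0.01 and 0.01 with RLE factors, 0.03 and 0.02 with library size only, 0.01 and 0 with the stricter filter, 0.01 and 0.01 with DESeq2, and 0.02 and 0.02 with only the groups compared. Leaving out a library gave BAG2 for HS+REC in siLonp1 cells -0.05 to 0.04, BAG6 for HS+REC against HS -0.05 to 0.08 and -0.02 to 0.08, BAG6 for siLonp1 -0.06 to 0.06 in HS and -0.03 to 0.06 in HS+REC, and for the interaction with HS+REC BAG4 -0.09 to 0.05 and BAG5 -0.02 to 0.09. For the interaction with HS+REC against HS it gave BAG2 -0.06 to 0.10, BAG3 -0.19 to 0.06, BAG4 -0.03 to 0.11, BAG5 -0.07 to 0.04 and BAG6 -0.05 to 0.07. The cause was not tested.

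Of the genes in the partner lists, those that fell at FDR 0.01 numbered 4 for HS in siLonp1 cells. At FDR 0.05, 0 of 6 Hsp70 genes, 2 of 8 other nucleotide exchange factors and 0 of 7 BAG3 partners had fallen there. So had 4 of 7 genes of the BAG6 complex and GET pathway and 1 of 3 partners of BAG1, BAG4 and BAG5. For siLonp1 in Ctrl, HS and HS+REC, 1, 2 and 3 fell at FDR 0.01, and 2 rose for the interaction with HS. Counts by list at FDR 0.05 for siLonp1 in Ctrl and HS are given above. With library size only, 7 and 10 fell for HS+REC in scramble and siLonp1 cells, and 2 for HS+REC against HS in scramble cells. For siLonp1 in Ctrl and HS, 5 and 9 fell with that scaling. No share of all genes is given at FDR 0.01 or with library size only, so these counts show no excess or lack. The family sum with library size only was 142.8 CPM per kb in Ctrl scramble and 644.6 in HS siLonp1. With the length of all exons it was 94.2, 99.6, 498.8, 591.6 and 685.7 CPM per kb from Ctrl scramble to HS+REC scramble, and the BAG3 share was 10.5, 9.51, 82.4, 84.9, 86.7 and 87.9%. Without division by length the share was 5.02, 4.58, 68, 72.2, 74.5 and 77%.

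No clear pairing of the libraries by replicate number was seen. Of 45 same-numbered pairs, 10 had correlated deviations over 0.1 (median -0.0222, highest 0.462), and 6 of 18 libraries correlated best with their own number. The limit of 0.1 was a choice, so a pairing is not excluded. The replicate block kept all counts of BAG genes, from 0 to 5 of 6, and every BAG call.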
